A study of Mus musculus with 18 samples.

Results

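A cassette exon whose length is a multiple of 3 can be included in an mRNA or skipped without shifting the reading frame that follows it, so its splicing can exchange a stretch of protein rather than end it. The exons described here were taken from the deposited splicing table by 4 conditions: a cassette exon class, a length from 28 to 299 nucleotides (nt), a length divisible by 3, and usable read coverage in every one of the 18 libraries. These conditions left 39558 exons of 8381 genes, out of 661941 splicing events in the table and of 368707 events covered in all libraries. The measurement is the percent spliced in (PSI), the share of transcripts with the exon estimated from reads that join it to its neighbours and reads that skip it.

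The libraries were made from mouse embryonic fibroblasts (MEFs) of the genotype Collagen-OKSM, M2rtta+, in which doxycycline switches on OCT4, SOX2, KLF4, and MYC (OSKM) and starts reprogramming toward induced pluripotent stem cells. All groups share this genotype, and the MEFs came from male embryos. The knockdown dataset held 12 libraries: non-infected cells without induction (NI) at day 0 and, at day 12 of OSKM induction, cells with a lentiviral scrambled shRNA (shSCR), either of 2 shRNAs against *Cpsf3* (shCPSF3#1, shCPSF3#2), or either of 2 against *Hnrnpul1* (shUL1#1, shUL1#2). The overexpression dataset held 6 libraries: uninduced NI cells of day 0 and, from day 12, cells with an empty retroviral vector (Empty) or with *Tia1* cDNA carrying an N-terminal T7 tag (T7-TIA1). Each of the 9 groups had 2 libraries. The sources do not say whether these are separate cultures or animals, so p-values measure only the spread between these libraries, which may be technical. Infected cells were sorted at day 2 and grown on irradiated feeder cells, and no step that removes feeder RNA is given, so RNA at day 12 can hold feeder RNA. One label field places the shUL1#2 libraries at day 0 and the overexpression NI libraries at day 12. The days in the library titles were used.

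CPSF3 is the endonuclease that cleaves pre-mRNA at the polyadenylation site, hnRNP UL1 is a nuclear RNA-binding protein, and TIA1 binds U-rich RNA next to 5′ splice sites and helps U1 snRNP to recognise them. Exon inclusion is set by splice site strength and by such RNA-binding proteins on nearby exonic and intronic sequence. Many short, frame-preserving exons lie in genes of the cytoskeleton, membrane trafficking, and signalling, and switches between their mesenchymal and epithelial patterns accompany the transition that fibroblasts undergo early in reprogramming.

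The targeted genes were lower in their own knockdowns than in shSCR, and *Tia1* was higher in T7-TIA1. *Cpsf3* stood at 86.7 and 118 scaled CPM (CPM on a library size scaled by the authors) in shSCR, at 38.6 and 49.99 in shCPSF3#1, and at 42.4 and 77.1 in shCPSF3#2. *Hnrnpul1* stood at 156 and 185 in shSCR, 55.7 and 85.8 in shUL1#1, and 38.7 and 63.7 in shUL1#2. It also stood at 118 to 166 in the shCPSF3 libraries, and *Cpsf3* at 74.2 to 88.5 in the shUL1 libraries. *Tia1* stood at 85.6 and 77.04 in Empty and at 613 and 469 in T7-TIA1. The fibroblast label of the day 0 cells was checked against 12 marker genes, all listed in the knockdown table and 11 of them in the overexpression table. Their summed level was 23836 to 25615 scaled CPM in NI of the knockdown dataset and 7181 to 8642 in shSCR. It was 27007 to 27445 in shCPSF3#1, 17075 to 28449 in shCPSF3#2, 17967 to 33339 in shUL1#1, and 14962 to 20822 in shUL1#2. It was 27395 to 44718 in NI of the overexpression dataset, 6910 to 7769 in Empty, and 5710 to 6049 in T7-TIA1. None of 11 pluripotency genes and none of 5 endothelial genes were among those listed in the filtered expression tables. Of 10 epithelial markers, *Krt8*, *Krt18*, and *Dsp* were listed in the knockdown table, and they summed to 17.3 to 22.3 in NI, 346 to 606 in shSCR, and 41.3 to 259 in the knockdowns. Of 6 leukocyte markers, *Cd68* and *Csf1r* were listed there, and they summed to 6.58 to 9.34 in NI, 39.1 to 51.7 in shSCR, and 33.5 to 165 in the knockdowns. Of 5 neural markers, *Tubb3* was listed there, at 36.7 to 41.95 in NI, 5.78 to 9.71 in shSCR, and 15.1 to 34.5 in the knockdowns. With *Map2*, which the overexpression table also lists, it summed to 72.9 to 125 in NI, 34.9 to 35.6 in Empty, and 32.9 to 42.4 in T7-TIA1. Several of these markers, or the share of cells and RNA they stand for, therefore moved together with the comparisons below. The neural sums of Empty and T7-TIA1 overlapped, as did the leukocyte sums of shSCR and shUL1#1. The part of the markers in the results was not tested. In bulk RNA, a change in the cells present and a change within cells cannot be told apart.

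The exons the results turn on most are given first, since each is small enough to be read whole. The *Dnm1l* pair is shown because both exons rose at day 12 in both datasets, the *P4ha2* pair because its exons moved in opposite directions, *Plod2*, *Numa1*, and *Eml4* for their falls at day 12, *Clstn1* for its higher level in the knockdowns, and *Ehbp1*, *Ppfibp1*, *Ptprk*, and *Myof* for their changes with T7-TIA1. Sequences are the coding strand, 5′ to 3′, from the GENCODE vM21 transcripts (GRCm38, which is mm10), and capitals mark the first base of each codon in the annotated frame.
Dnm1l 33 nt: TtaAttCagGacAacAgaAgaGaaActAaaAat
Dnm1l 78 nt: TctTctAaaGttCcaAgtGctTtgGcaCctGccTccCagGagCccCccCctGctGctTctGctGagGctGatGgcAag
P4ha2 60 nt: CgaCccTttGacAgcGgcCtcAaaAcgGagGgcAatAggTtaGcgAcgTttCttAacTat
P4ha2 66 nt: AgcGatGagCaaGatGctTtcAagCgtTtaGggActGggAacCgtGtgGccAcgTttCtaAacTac
Plod2 63 nt: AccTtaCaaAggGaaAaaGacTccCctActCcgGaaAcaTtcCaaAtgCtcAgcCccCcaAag
Numa1 42 nt: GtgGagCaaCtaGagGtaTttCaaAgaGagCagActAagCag
Eml4 33 nt: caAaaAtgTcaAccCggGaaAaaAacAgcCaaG
Clstn1 30 nt: agAgtTttGagGtgAcaGtcAccAaaGaaG
Ehbp1 108 nt: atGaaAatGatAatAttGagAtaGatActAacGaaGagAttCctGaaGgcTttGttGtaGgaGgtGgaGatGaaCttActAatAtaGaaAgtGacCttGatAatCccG
Ppfibp1 30 nt: GaaAagGagTctAtcCagAagCttTcaGag
Ptprk 36 nt: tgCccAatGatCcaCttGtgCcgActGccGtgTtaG
Myof 39 nt: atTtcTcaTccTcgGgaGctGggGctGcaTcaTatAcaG
The *Dnm1l* exons lie at chr16:16318445-16318477 and chr16:16318764-16318841 on the minus strand, and those of *P4ha2* at chr11:54126238-54126297 and chr11:54126346-54126411 on the plus strand. The others lie at chr9:92601985-92602047 (*Plod2*, plus), chr7:102002295-102002336 (*Numa1*, plus), chr17:83428216-83428248 (*Eml4*, plus), chr4:149626087-149626116 (*Clstn1*, plus), chr11:22062780-22062887 (*Ehbp1*, minus), chr6:147012918-147012947 (*Ppfibp1*, plus), chr10:28562107-28562142 (*Ptprk*, plus), and chr19:37969907-37969945 (*Myof*, minus). All 12 are annotated as coding exons, and the position of the capitals shows that the *Dnm1l*, *P4ha2*, *Plod2*, *Numa1*, and *Ppfibp1* exons begin on the first base of a codon, whereas those of *Eml4*, *Clstn1*, *Ehbp1*, *Ptprk*, and *Myof* begin on the second base of a codon.

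The 39558 exons were short, coding, and mostly constitutive. Their median length was 114 nt, with quartiles of 84 and 153 nt, which encodes 38 amino acids, and the shortest and longest were 30 and 297 nt. Of them, 83.0% were annotated coding exons. PSI was 95 or more in all 18 libraries for 30388 exons (76.8%) and 5 or less in all for 3835 (9.69%). Alternative use was the exception: PSI lay between 10 and 90 in at least 1 library for 2936 exons (7.42%) and in all libraries for 812 (2.05%). Among the 61985 frame-shifting cassette exons of the same lengths and coverage, the corresponding shares were 6.25% and 1.14%.

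The 812 exons alternative in every library differed in make-up from the constitutive ones. They were shorter than 60 nt in 21.1%, against 6.91% of the 30388 constitutive exons. They were coding in 66.4% against 95.02%. Where the reading frame is annotated, they started on the first base of a codon in 46.7%, against 62.4% of constitutive exons, so that fewer of them exchange whole codons only. These shares describe the annotation and were not tested.

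Inclusion and exclusion reads on the 39558 exons summed to between 29432800 and 39321200 per library (to 6 significant digits), and the median exon had 326 to 398 reads in each. A PSI of 50 has a 95% Wilson interval of 23.7 to 76.3 at 10 reads, the coverage minimum, 40.4 to 59.6 at 100 reads, and 46.9 to 53.1 at 1000 reads, for counting error only. Between the 2 libraries of a group, the median absolute difference in PSI over the 812 exons was 3.37 in NI of the knockdown dataset and 5.29 in shSCR, with the other groups between them.

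Frame-preserving exons changed by day 12 of reprogramming in each dataset, and most exons called in one moved the same way in the other. Each comparison was read with a pair of measures, a read test of log2 inclusion over exclusion reads, with p-values adjusted over all events of the dataset, and the differential splicing rule of the study, which asks for a difference of at least 10 PSI between means and of at least 5 PSI between the nearest libraries. In shSCR against NI, 1170 of 14197 tested exons were called at an adjusted p under 0.05 (8.24%), 796 higher and 374 lower, against 6.02% of all events tested. In Empty against NI, 394 of 11069 were called (3.56%), 201 higher and 193 lower, against 1.69% of all events. Frame-shifting exons of these lengths were called in 6.92% and 2.69%. The median difference over all tested events was 0.130 PSI in shSCR and 0.0300 in Empty. Over the 8 gene lists described below, the list medians ran from -0.0100 to 0.370 PSI in shSCR and from -0.0500 to 0.130 in Empty. Called exons that moved by at least 10 PSI numbered 461 in shSCR (289 higher and 172 lower) and 227 in Empty (114 higher and 113 lower). Of called exons of any size, the 1170 in shSCR fell to between 533 and 705 when either NI library or either shSCR library was left out. The 394 in Empty fell to 174 without NI replicate 1, 221 without NI replicate 2, and 151 without Empty replicate 1. Other settings moved the 1170 and 394 by over 1.5 times. They were 497 and 125 with events kept at 1 inclusion and 1 exclusion read, 485 and 40 without weights, where Empty had 11 higher and 29 lower, and 621 and 0 on PSI in percent, where limma gave 1296 in Empty at an unadjusted p under 0.05.

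The differential splicing rule was met by 662 of the 39558 exons in shSCR, 409 of them higher, against 1.15% of all covered events, and by 418 in Empty, 227 of them higher, against 0.601% of all covered events. Without Empty replicate 2 the second count was 653. The 2 datasets share no library. Of 801 exons meeting the rule in either, 709 moved in the same direction in both, and 279 met it in both, which is 42.1% of the 662 and 66.7% of the 418. Of these 279, 276 agreed in direction. Of the 1170 exons called by the read test in shSCR, 1145 were tested in the overexpression dataset, and 1014 of these moved the same way there (88.6%). Of the 394 called in Empty, 393 were tested in the knockdown dataset, and 353 moved the same way (89.8%).

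**Figure D1:**
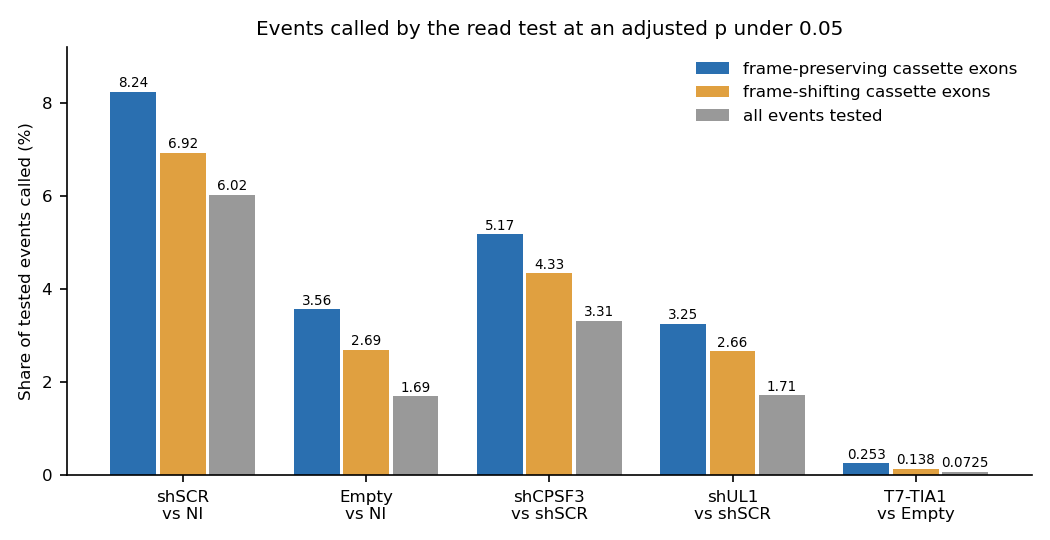
Share of tested events called by the read test in each of the 5 comparisons (percent of events, y axis), for frame-preserving cassette exons, frame-shifting cassette exons of the same lengths, and all events. In shSCR against NI the bars stand at 8.24%, 6.92%, and 6.02%, and in T7-TIA1 against Empty at 0.253%, 0.138%, and 0.0725%.

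**Figure D2:**
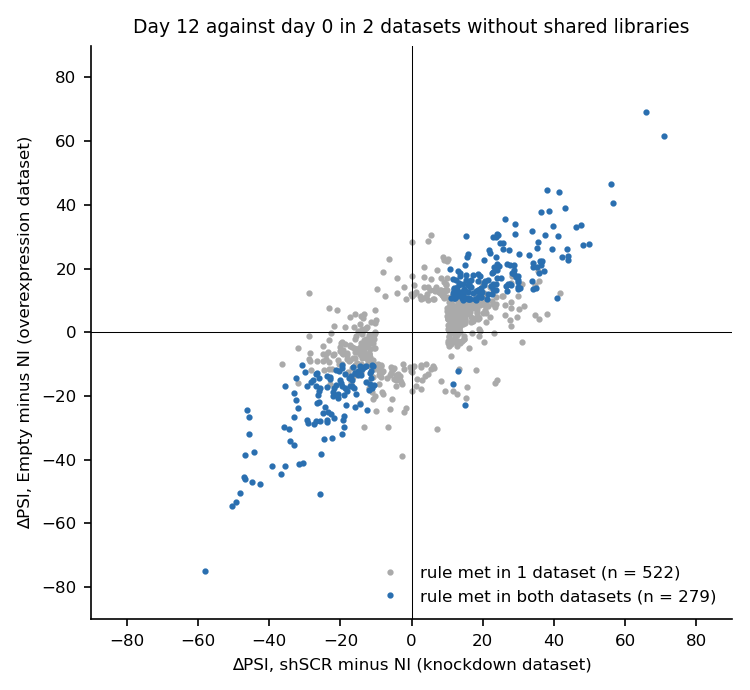
Difference in PSI at day 12 in the knockdown dataset (shSCR minus NI, x axis) and in the overexpression dataset (Empty minus NI, y axis), one point for each of the 801 exons that met the differential splicing rule in either dataset. The 279 exons that met it in both are marked, and all but 3 of them lie in the quadrants where both differences have the same sign.

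The 8 gene lists were drawn with earlier results of these data known, so their shares are a description and were not tested. Among the 8, the list of mitochondrial shape and lipid genes had the largest share called in shSCR. It held 44 tested exons, of which 7 in 5 genes were called (15.9%), 6 higher and 1 lower, against 4.46% of all events higher and 1.56% lower. In Empty, 4 of 35 were called, all higher, against 0.968% of all events higher. Over all tested frame-preserving exons, from which the lists are drawn, 8.24% were called in shSCR and 3.56% in Empty. *Dnm1l* encodes the dynamin-related GTPase that constricts and divides mitochondria, and its 33-nt and 78-nt exons, printed above, lie in the variable domain of the protein. PSI of the 33-nt exon was 20.3 and 18.99 in NI and 74.7 and 77.4 in shSCR, and 14.7 and 10.4 in NI and 60.3 and 45.7 in Empty. All day 12 control libraries stood above all day 0 libraries at this exon. The exon rose by 56.4 PSI in shSCR (log2 ratio difference 3.70 ± 0.33 SE, adjusted p = 1.32e-07 in the read test) and by 40.4 PSI in Empty (adjusted p = 1.14e-07). The 78-nt exon stood at 14.6 and 14.9 in NI and 31.3 and 38.9 in shSCR and rose by 20.4 PSI (read test, adjusted p = 2.46e-04). In Empty it rose by 15.5 PSI (adjusted p = 0.00554), a call lost without Empty replicate 1 (0.118) or NI replicate 1 (0.105).

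*Immt*, which encodes the scaffold of the complex that shapes cristae junctions, had a 90-nt exon at 35.5 and 35.7 in NI and 78.9 and 80.3 in shSCR. It rose by 44.01 PSI (read test, adjusted p = 1.48e-06). In the overexpression dataset it stood at 38.1 and 28.4 in NI and 64.6 and 49.7 in Empty, a rise of 23.9 PSI (adjusted p = 0.00603) that was not called without Empty replicate 1 (0.268) or NI replicate 2 (0.148). The 36-nt exon of *Taz*, the gene for tafazzin, which remodels cardiolipin in the mitochondrial membrane, stood at 36.8 and 20 in NI and 68.9 and 60.4 in shSCR. It rose by 36.3 PSI (adjusted p = 0.00155), a call lost without NI replicate 2 (0.0965). None of the 18 libraries had the best score for the balance of reads between its upstream and downstream junctions. In Empty it stood at 45.8 and 36.2 against 17.95 and 20.2 in NI, which missed the threshold (adjusted p = 0.0529).

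Exons of extracellular matrix genes moved in both directions. Of 228 tested exons of this list, 15 were called in shSCR (6.58%), 12 higher and 3 lower. This share was near the 6.02% of all events and below the 8.24% of all tested frame-preserving exons. Of 163 in Empty, 12 were called (7.36%, against 1.69% of all events), 6 in each direction. *Plod2* encodes lysyl hydroxylase 2, which modifies collagen lysines for cross-links, and its 63-nt exon separates the long from the short form of the enzyme. PSI was 93.03 and 93.7 in NI and 60.2 and 30.03 in shSCR, and 95.1 and 97.5 in NI and 42.1 and 49.9 in Empty. The shSCR libraries lay far apart, yet both stood below all 4 day 0 libraries. The exon fell by 48.3 PSI in shSCR (read test, adjusted p = 0.00373) and fell by 50.3 PSI in Empty (adjusted p = 3.57e-12). The first call was lost without NI replicate 1 (0.0595) or NI replicate 2 (0.0777), and the second held whichever library was left out. The 141-nt exon of *Fbln2*, the matrix glycoprotein fibulin-2, moved the other way, from 6.12 and 7.91 in NI to 43.7 and 52.4 in shSCR (rise of 41.02 PSI, adjusted p = 2.68e-09). Values in Empty were 44.1 and 51.7 against 9.68 and 25.4 (adjusted p = 0.0183), a call lost without Empty replicate 1 (0.207) or Empty replicate 2 (0.131).

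The 2 *P4ha2* exons were chosen after their values were seen, as were the other genes with exons in both directions. *P4ha2* encodes the catalytic subunit of a prolyl 4-hydroxylase that modifies collagen, and the 60-nt and 66-nt exons printed above are neighbours. The 60-nt exon stood at 71.8 and 74.5 in NI and 42.2 and 55.9 in shSCR. The 66-nt exon stood at 27.3 and 25.7 in NI and 56.95 and 47.6 in shSCR. The first fell by 24.1 PSI and the second rose by 25.8 PSI in shSCR (read test, adjusted p = 0.00192 and 6.54e-04), and the first call was lost without shSCR replicate 1 (0.106). In Empty the differences were -8.36 and 11.2 PSI and were not called (adjusted p = 0.542 and 0.340). Among 417 genes with exons called by at least 10 PSI in shSCR, 38 had more than 1 such exon, and in 12 of these the exons went in both directions. They include *Actn1*, whose product alpha-actinin cross-links actin filaments, with a 63-nt exon at 22.7 and 24.2 in NI and 42.6 and 36.9 in shSCR and an 81-nt exon at 77.7 and 76.4 in NI and 59.96 and 65.6 in shSCR. Its calls were lost without shSCR replicate 1 (0.0817 and 0.190) or NI replicate 1 (0.0526 and 0.123), and that of the 81-nt exon also without NI replicate 2 (0.0881). They also include *Hnrnpd*, the gene of the AU-rich element binding protein AUF1, whose 147-nt exon rose by 18.3 PSI and whose 57-nt exon fell by 18.1 PSI (adjusted p = 0.00268 and 0.00825). The first call was lost without shSCR replicate 1 (0.0532) and the second without shSCR replicate 1 (0.159) or NI replicate 2 (0.0972). In Empty the *Actn1* differences had the other sign, at -4.82 and 5.04 PSI, and those of *Hnrnpd* were 7.28 and -8.28 PSI, and none was called (adjusted p = 0.673, 0.673, 0.509, and 0.458).

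Actin cytoskeleton and adhesion genes had more exons lower than higher at day 12. Of 342 tested, 34 were called in shSCR (9.94%), 14 higher and 20 lower, against 4.46% of all events higher and 1.56% lower. Of 290 in Empty, 20 were called (6.90%), 6 higher and 14 lower, against 0.968% and 0.724% of all events. *Clstn1* encodes calsyntenin-1, a membrane protein that ties cargo to kinesin, and its 30-nt exon stood at 51.7 and 53.3 in NI and 25.4 and 25.9 in shSCR. It fell by 26.9 PSI (log2 ratio difference -1.67 ± 0.27 SE, read test, adjusted p = 2.60e-04). In Empty its values of 43.9 and 36.3 against 52.97 and 53.5 were not called (adjusted p = 0.201).

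In the list of genes with known epithelial-mesenchymal switch exons, 23 of 188 tested exons were called in shSCR (12.2%, against 6.02% of all events), 12 higher and 11 lower, and 14 of 159 in Empty (8.81%, against 1.69%), 6 higher and 8 lower. The list was drawn for its genes, so it also counts exons of these genes that are not the known switch. The 78-nt exon of *Ralgps2*, an exchange factor for the GTPase Ral, stood at 5.08 and 2.50 in NI and 37.5 and 38.6 in shSCR, a rise of 34.2 PSI (read test, adjusted p = 1.55e-05). The Empty libraries had 28.8 and 20.7 against 6.67 and 15.4 (adjusted p = 0.248). The 81-nt exon of *Map3k7*, the kinase TAK1 of TGF-beta signalling, stood at 11.4 and 10.7 in NI and 29.5 and 39.8 in shSCR. It rose by 23.6 PSI (adjusted p = 0.00820), a call lost without shSCR replicate 2 (0.0838), NI replicate 1 (0.0857) or NI replicate 2 (0.117). In Empty it stood at 41.6 and 38.5 against 11.8 and 8.56 and rose by 29.9 PSI (adjusted p = 5.94e-06).

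Exons of *Mtf2*, *Numa1*, *Eml4*, and *Cit* were among those named for the size of their fall at day 12. The 198-nt exon of *Mtf2*, which encodes a Polycomb-like partner of the histone methyltransferase complex PRC2, lies outside annotated coding sequence. It stood at 87.6 and 75.2 in NI and 23.3 and 23.2 in shSCR and fell by 58.1 PSI (read test, adjusted p = 1.50e-05). In Empty it fell by 74.9 PSI, from 93.1 and 97.2 to 23.4 and 17.1 (adjusted p = 4.55e-07). The knockdown libraries stood at 15.6 to 40.9 and were not called against shSCR (adjusted p = 0.908 and 0.458), and 2 of the 18 libraries had the best balance score for it. The 42-nt exon of *Numa1*, which organises spindle poles, stood at 96.8 and 95.97 in NI and 42.7 and 43.4 in Empty. It fell by 53.4 PSI (log2 ratio difference -5.10 ± 0.33 SE, read test, adjusted p = 1.64e-12). In the knockdown dataset it went from 96.4 and 96.8 to 62.7 and 31.6, but the shSCR libraries lay far apart and the difference was not called (adjusted p = 0.155). *Eml4* encodes a microtubule-stabilising protein, and its 174-nt exon stood at 99.3 and 99.5 in NI and 53.8 and 52.3 in shSCR, and at 100 and 100 in NI and 74.3 and 77.2 in Empty. It fell by 46.4 PSI in the first (adjusted p = 1.70e-04) and fell by 24.3 PSI in the second (adjusted p = 1.05e-04). Its 33-nt exon fell by 46.9 PSI in Empty, from 87.99 and 83.6 to 41.3 and 36.5 (adjusted p = 1.66e-07). In shSCR the 33-nt exon fell by 44.7 PSI, from 90.9 and 92.6 to 49.7 and 44.4 (adjusted p = 0.0175), a call lost whichever of the 4 libraries was left out (adjusted p up to 0.216), and 1 of the 18 libraries had the best balance score for it. The 45-nt exon of *Cit*, the citron kinase of cytokinesis, fell by 50.3 PSI in shSCR, from 71.7 and 56.8 to 16.4 and 11.4 (adjusted p = 2.11e-05). It fell by 54.7 PSI in Empty, from 72.4 and 71.4 to 17.8 and 16.7 (adjusted p = 2.21e-07).

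Chromatin and transcription genes had 26 of 217 tested exons called in shSCR (12.0%), 19 higher and 7 lower, and rises also outnumbered falls over all events, at 4.46% higher and 1.56% lower. Of 179 in Empty 9 were called (5.03%, against 1.69% of all events), 3 higher and 6 lower. The 111-nt exon of *Hdac7*, a class IIa histone deacetylase, stood at 12.8 and 12.2 in NI and 57.7 and 54.5 in shSCR and rose by 43.6 PSI (read test, adjusted p = 2.41e-08). In the overexpression dataset the NI libraries lay apart, at 10.7 and 31.7, and 43.3 and 51.1 in Empty was not called (adjusted p = 0.0821). The 45-nt exon of *Foxm1*, a transcription factor of G2 and M phase genes, stood at 98.3 and 98.1 in NI and 60.2 and 59.3 in Empty, a fall of 38.5 PSI (adjusted p = 7.15e-11). In shSCR it stood at 56.1 and 47.3 against 98.1 and 98.8 (adjusted p = 0.00432), a call lost without NI replicate 1 (0.0628) or NI replicate 2 (0.0802). The 81-nt exon of *Nfya*, the DNA-binding subunit of NF-Y, fell by 50.8 PSI in Empty, from 90.7 and 93.5 to 39.01 and 43.5 (adjusted p = 3.07e-09). In shSCR, 70.7 and 44.7 against 81.3 and 85.7 was not called (adjusted p = 0.268). The 69-nt exon of *Carm1*, a protein arginine methyltransferase that acts on histones and coactivators, stood at 49.8 and 45.9 in NI and 84.4 and 88.5 in shSCR and rose by 38.6 PSI (adjusted p = 2.75e-06). In Empty it rose by 37.97 PSI, from 43.8 and 47.5 to 85.2 and 82.1 (adjusted p = 5.85e-07).

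Kinase and signalling genes had 24 of 178 tested exons called in shSCR (13.5%, against 6.02% of all events), 15 higher and 9 lower, and 10 of 140 in Empty (7.14%, against 1.69%), 4 higher and 6 lower. The 132-nt exon of *Nek1*, a kinase of cilia and the DNA damage response, was nearly absent at day 0, at 4.44 and 3.73, and stood at 45.1 and 45.02 in shSCR. It rose by 40.99 PSI (log2 ratio difference 4.03 ± 0.43 SE, read test, adjusted p = 8.79e-07). In Empty it stood at 21.1 and 12.7 against 5.31 and 7.19 and was not called (adjusted p = 0.0873). The 129-nt exon of *Tsc2*, whose product restrains the growth kinase mTORC1, stood at 81.5 and 84.5 in NI and 43.98 and 33.4 in shSCR, and at 79.2 and 85.9 and 44.3 and 45.5 in NI and Empty. It fell by 44.3 PSI and fell by 37.6 PSI (adjusted p = 5.14e-05 and 1.91e-06).

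Membrane trafficking genes had 19 of 172 tested exons called in shSCR (11.0%, against 6.02% of all events), 9 higher and 10 lower, and 9 of 134 in Empty (6.72%, against 1.69%), 5 higher and 4 lower. *Sec31a* encodes an outer coat subunit of COPII vesicles and had exons in both directions. Its 291-nt exon stood at 17.4 and 17.2 in NI and 45.4 and 62.2 in shSCR, and at 18.3 and 12.8 in NI and 56.6 and 50.2 in Empty. It rose by 36.5 PSI and by 37.8 PSI (read test, adjusted p = 0.00116 and 1.26e-07). Its 78-nt exon fell by 19.9 PSI and fell by 15.8 PSI (adjusted p = 8.69e-06 and 3.09e-05). The 129-nt exon of *Bin1*, an amphiphysin that bends membranes, stood at 11.96 and 9.92 in NI and 34.2 and 35.5 in shSCR, and at 11.3 and 11.8 in NI and 47.3 and 37.4 in Empty. It rose by 23.95 and 30.8 PSI (adjusted p = 6.85e-06 and 1.03e-06).

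**Figure D3:**
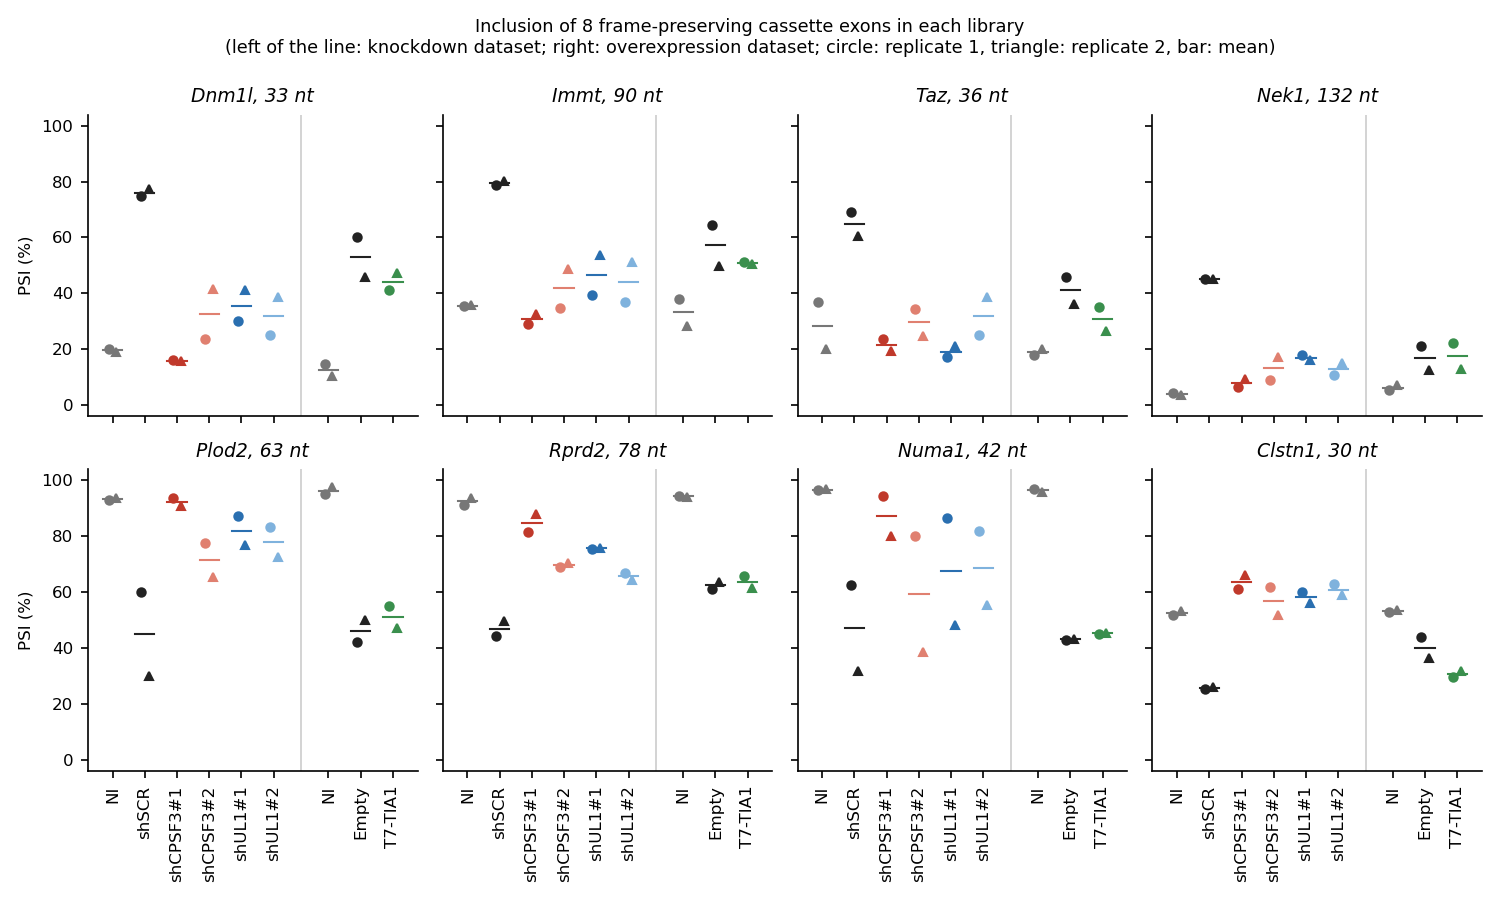
PSI (percent, y axis) of 8 exons in each library, grouped by condition on the x axis, with a circle for replicate 1, a triangle for replicate 2, and a bar for the mean; the knockdown dataset is left of the line and the overexpression dataset right of it. The *Dnm1l* 33-nt exon stands at 20.3 and 19.0 in NI, 74.7 and 77.4 in shSCR, and below 42 in all 8 knockdown libraries.

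RNA-binding and splicing genes had 23 of 221 tested exons called in shSCR (10.4%), 17 higher and 6 lower, a split near that of all events, at 4.46% higher and 1.56% lower. In Empty 8 of 173 were called (4.62%, against 1.69% of all events), 5 higher and 3 lower. *Ktn1* is in this list but encodes the endoplasmic reticulum protein kinectin, a partner of kinesin that is not a splicing factor. Its 72-nt exon stood at 31.8 and 27.5 in NI and 76.2 and 70.8 in shSCR and rose by 43.9 PSI (read test, adjusted p = 3.08e-07). In Empty, values of 63.3 and 47.2 against 31.7 and 33.3 were called (adjusted p = 0.0107), but not without Empty replicate 1 (0.368) or NI replicate 1 (0.106), and without Empty replicate 1 the rise was 14.7 PSI in place of 22.8.

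*Tia1* and its paralog *Tial1*, which encodes TIAR, each carry a frame-preserving exon that is annotated in transcripts subject to nonsense-mediated decay (NMD), the pathway that degrades mRNAs with an early stop codon. These exons preserve the frame by length but hold a stop codon within it. The first 37 bases of each are shown because both end on the stop codon of the annotated NMD transcript, which is in capitals.
Tia1 66 nt: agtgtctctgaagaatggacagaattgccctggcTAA
Tial1 69 nt: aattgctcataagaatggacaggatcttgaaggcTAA
The *Tia1* exon lies at chr6:86423606-86423671 on the plus strand and is 66 nt long, and the *Tial1* exon lies at chr7:128447039-128447107 on the minus strand and is 69 nt long. Aligned to the stop codon, 25 of 37 bases are identical, and over the whole exons 46 of 69 aligned positions, with a shared run of 12 bases. Aligned in the same way to the 613 other 69-nt exons with a sequence, the *Tia1* exon had a median of 35 identical positions and at most 46.

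PSI of the *Tia1* exon was 22.9 and 20.9 in NI and 70.4 and 69.7 in shSCR. It rose by 48.1 PSI (log2 ratio difference 3.04 ± 0.28 SE, read test, adjusted p = 7.69e-08). In Empty it stood at 54.1 and 40.1 against 16.2 and 23.1 in NI, a rise of 27.4 PSI (adjusted p = 0.00908) that was lost without Empty replicate 1 (0.135) or NI replicate 1 (0.123). Scaled CPM of *Tia1* was 63.7 and 67.6 in NI and 69.7 and 66.7 in shSCR. The *Tial1* exon stood at 16.7 and 17.2 in NI and 44.6 and 29.8 in shSCR and rose by 20.2 PSI (adjusted p = 0.00202), which fell to 12.8 PSI and was not called without shSCR replicate 1 (0.101). Its values in Empty were 44.2 and 28.01 against 12.5 and 14.5 (adjusted p = 0.00277), a call lost without Empty replicate 1 (0.144) or NI replicate 1 (0.0550). No library had the best balance score for the *Tial1* exon, and 2 had it for the *Tia1* exon.

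After these values were seen, all 305 exons of the set whose annotated transcripts are NMD targets with a stop codon in the exon were counted, and the counts were not tested. They belong to 291 genes, and 86 of them (28.2%) had a PSI between 10 and 90 in at least 1 library, against 7.42% of all 39558. In shSCR, 49 of 220 tested were called (22.3%), 41 higher and 8 lower, against 4.46% of all events higher and 1.56% lower. In Empty, 11 of 194 were called, 10 higher and 1 lower, against 0.968% and 0.724% of all events. Those in the RNA-binding list that were called in any comparison were in *Tia1*, *Tial1*, *Rbm39*, *Snrnp70*, and *Srsf11*. The 117-nt exon of *Srsf11*, a serine-arginine-rich splicing factor, stood at 15.7 and 13.9 in NI and 38.1 and 27.4 in shSCR and rose by 17.9 PSI (read test, adjusted p = 0.00161), a call lost without shSCR replicate 1 (0.0665). In Empty, 29.8 and 21 against 15.4 and 19.6 was not called (adjusted p = 0.280). The 60-nt exon of *Snrnp70*, the U1-70K protein, rose by 8.16 PSI in shSCR, from 3.76 and 3.37 to 14.9 and 8.55, and by 7.13 PSI in Empty (adjusted p = 7.10e-04 and 5.88e-04), the second lost without NI replicate 2 (0.0617). The 72-nt exon of *Rbm39* rose by 10.1 PSI in shSCR, from 7.55 and 6.74 to 14.5 and 19.96 (adjusted p = 6.58e-04).

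Knockdown of *Cpsf3* or *Hnrnpul1* moved frame-preserving exons in both directions relative to shSCR. The mean of both shRNAs against shSCR called 734 of 14197 tested exons (5.17%), 323 higher and 411 lower, against 3.31% of all events, of which 1.06% were higher and 2.25% lower. Of these, 264 moved by at least 10 PSI, 107 higher and 157 lower. Knockdown of *Hnrnpul1* called 462 (3.25%), 218 higher and 244 lower, against 1.71% of all events, 0.664% higher and 1.05% lower. Of these, 178 moved by at least 10 PSI, 70 higher and 108 lower. Median differences over all tested events were -0.0600 and -0.0225 PSI, and over the 8 lists they ran from -0.172 to 0.0212 and from -0.314 to 0.00750. Both comparisons share the shSCR libraries, so their values are set side by side and their overlap was not read. The comparison of shSCR with NI uses the same libraries, so an exon chosen for an extreme shSCR value tends to show the opposite sign here. Opposite signs at day 12 and in the knockdowns are therefore levels, not separate results. The count for *Cpsf3* was 266 without shSCR replicate 1 and 439 without shSCR replicate 2, where the split turned to 231 higher and 208 lower. The count for *Hnrnpul1* was 135 without shSCR replicate 1, 324 without shSCR replicate 2 (171 higher and 153 lower, again a turned split), 306 without shUL1#1 replicate 1, and 282 without shUL1#2 replicate 1. Both counts also fell by over 1.5 times with events kept at 1 inclusion and 1 exclusion read (246 and 97), without weights (82 and 15), and on PSI in percent (234 and 132).

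By the differential splicing rule against shSCR, 512 exons qualified with shCPSF3#1 (228 higher), 297 with shCPSF3#2 (128 higher), 315 with shUL1#1 (142 higher), and 338 with shUL1#2 (168 higher). The shares of all covered events were 0.795%, 0.498%, 0.507%, and 0.539%. Without shSCR replicate 2 the split turned for shUL1#1 and shUL1#2, with more exons higher than lower. With 1 library less the counts rose by over 1.5 times in 5 cases. They were 521 for shCPSF3#2 without its replicate 2 and 463 without shSCR replicate 1, 519 for shUL1#1 without its replicate 2 and 474 without shSCR replicate 1, and 555 for shUL1#2 without its replicate 2.

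The median PSI of exons that rose at day 12 stood between day 0 and shSCR in the knockdown cells, and that of exons that fell overlapped with shSCR in some libraries. To describe this without choosing exons on the shSCR libraries, the 114 exons (110 genes) called at least 10 PSI higher and the 113 (103 genes) called at least 10 PSI lower in Empty were taken from the overexpression dataset and read in the knockdown dataset. Neither set was chosen on values of the knockdown dataset, so these are levels with no test. The median PSI of the 114 was 23.2 and 23.9 in NI and 56.6 and 60.8 in shSCR. It was 37.6 and 37.2 in shCPSF3#1, 40.4 and 47.7 in shCPSF3#2, 41.3 and 48.9 in shUL1#1, and 40.1 and 49.99 in shUL1#2. All 8 knockdown libraries lay above both NI libraries and below both shSCR libraries. The mean lay below that of shSCR for 107 of the 114 exons with shCPSF3#1, 98 with shCPSF3#2, 95 with shUL1#1, and 99 with shUL1#2. These counts hold no distance to day 0, so an exon below NI is counted too. The median PSI of the 113 was 78.9 and 80.2 in NI and 58.7 and 52.1 in shSCR. It was 77.3 and 71.7 in shCPSF3#1, 72.7 and 54.5 in shCPSF3#2, 74.95 and 62.1 in shUL1#1, and 68.2 and 57.2 in shUL1#2, so that replicate 2 of shCPSF3#2 and of shUL1#2 lay between the shSCR libraries. Among libraries of the same replicate number, all 4 knockdown libraries lay above shSCR. The summed fibroblast markers given above were nearer to NI than to shSCR in most of these libraries, and their part in the result was not tested.

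**Figure D4:**
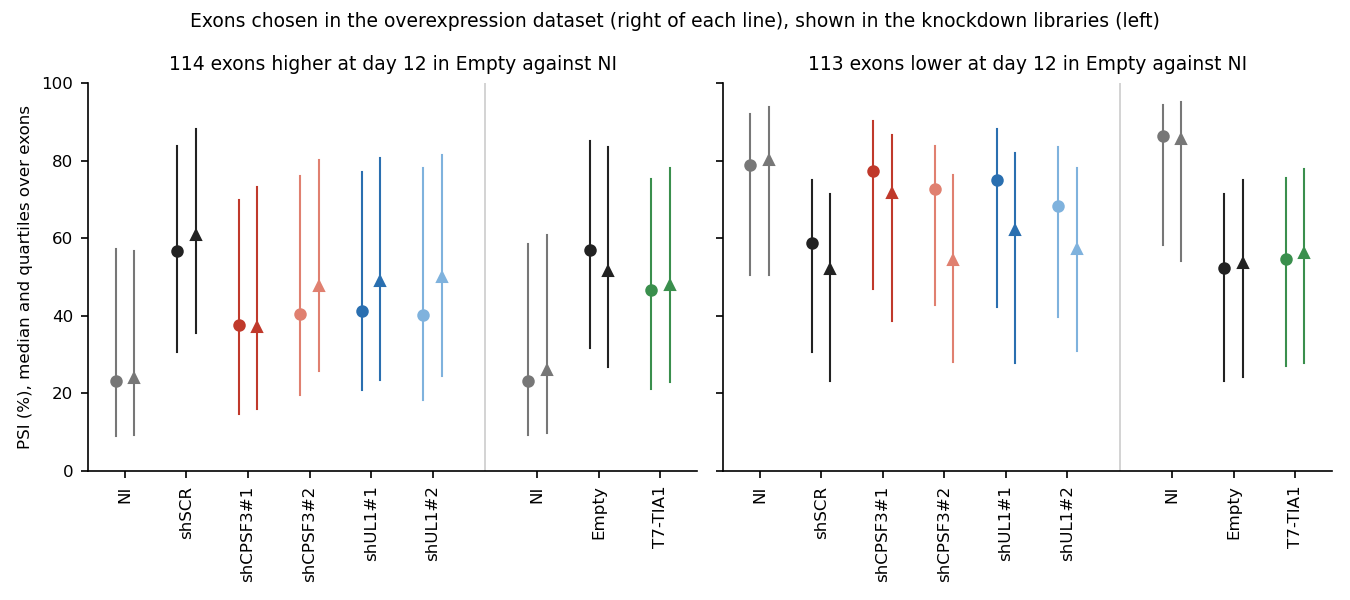
Median PSI and quartiles over exons (percent, y axis) in each library (x axis), for the 114 exons called higher and the 113 called lower by at least 10 PSI in Empty against NI. In the higher set the medians are 23.2 and 23.9 in NI, 56.6 and 60.8 in shSCR, and 37.2 to 49.99 in the 8 knockdown libraries.

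The *Dnm1l*, *Immt*, and *Taz* exons described above were lower in the knockdowns than in the same shSCR libraries. PSI of the 33-nt *Dnm1l* exon was 16.1 and 15.7 in shCPSF3#1, 23.7 and 41.5 in shCPSF3#2, 29.95 and 41.02 in shUL1#1, and 25.1 and 38.6 in shUL1#2, against 74.7 and 77.4 in shSCR. It fell by 51.8 PSI with the *Cpsf3* shRNAs (log2 ratio difference -3.39 ± 0.29 SE, read test, adjusted p = 1.79e-07) and fell by 42.4 PSI with the *Hnrnpul1* shRNAs (adjusted p = 1.40e-05). With shCPSF3#1 both libraries lay below the NI values of 20.3 and 18.99. The 78-nt *Dnm1l* exon stood at 13.6 and 14.9, 19.1 and 26.6, 21.95 and 26.7, and 22.4 and 24.5 in the same order. It fell by 16.5 PSI with the *Cpsf3* shRNAs (adjusted p = 0.00139), a call lost without shSCR replicate 2 (0.0577), and its difference of -11.2 PSI with the *Hnrnpul1* shRNAs was not called (adjusted p = 0.0758). The *Immt* exon stood at 29 and 32.7 in shCPSF3#1, 34.9 and 48.6 in shCPSF3#2, 39.3 and 53.5 in shUL1#1, and 36.9 and 51.3 in shUL1#2, all at least 25 PSI below shSCR. It fell by 43.3 and by 34.4 PSI (adjusted p = 7.06e-07 and 2.47e-05). The *Taz* exon stood at 23.8 and 19.3, 34.3 and 24.8, 17.1 and 21.1, and 25 and 38.8 in the same order and fell by 39.1 and by 39.2 PSI (adjusted p = 3.47e-05 and 5.60e-05). In this list 5 of 44 tested exons were called with the *Cpsf3* shRNAs, 1 higher and 4 lower, against 1.06% of all events higher and 2.25% lower. With the *Hnrnpul1* shRNAs 3 were called, all lower, against 0.664% higher and 1.05% lower, so falls outnumbered rises over all events too.

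Exons of *Nek1* and *Cblb* also fell from shSCR in the knockdowns. The 132-nt *Nek1* exon stood at 6.55 and 9.17 in shCPSF3#1, 9.16 and 17.04 in shCPSF3#2, 17.9 and 16 in shUL1#1, and 10.9 and 15.1 in shUL1#2, against 45.1 and 45.02 in shSCR. It fell by 34.6 and by 30.1 PSI (read test, adjusted p = 1.05e-06 and 1.95e-05). The 129-nt exon of *Cblb*, a ubiquitin ligase that damps receptor signalling, stood at 40.7 and 28.1, 36.5 and 42.8, 41.04 and 34.5, and 40.7 and 38.04 in the same order, against 77.96 and 63.5 in shSCR and 33.1 and 31.99 in NI. It fell by 33.7 and by 32.1 PSI (adjusted p = 9.71e-05 and 3.22e-04), and the second call was lost without shSCR replicate 1 (0.0581). In the overexpression dataset the *Cblb* exon stood at 38.3 and 40.4 in Empty and 36.99 and 30.3 in NI (adjusted p = 0.699), so both shSCR libraries stood above all 16 others. In the kinase list 20 of 178 tested exons were called with the *Cpsf3* shRNAs (11.2%, against 3.31% of all events), 9 higher and 11 lower, and 12 with the *Hnrnpul1* shRNAs (6.74%, against 1.71%), 5 higher and 7 lower.

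Within the actin and adhesion list, the 30-nt *Clstn1* exon that fell in shSCR against NI was higher in the knockdowns than in the same shSCR libraries. It stood at 61.2 and 66.1 in shCPSF3#1, 61.7 and 51.9 in shCPSF3#2, 60 and 56.2 in shUL1#1, and 62.8 and 58.8 in shUL1#2, against 25.4 and 25.9 in shSCR and 51.7 and 53.3 in NI. It rose by 34.5 PSI with the *Cpsf3* shRNAs (log2 ratio difference 2.13 ± 0.24 SE, read test, adjusted p = 5.03e-06) and by 33.8 PSI with the *Hnrnpul1* shRNAs (adjusted p = 1.45e-05). In 7 of the 8 knockdown libraries it stood above both NI libraries, and shCPSF3#2 replicate 2 stood between them. Of the 342 tested exons of the actin and adhesion list, 20 were called with the *Cpsf3* shRNAs, 13 higher and 7 lower, against 1.06% of all events higher and 2.25% lower. With the *Hnrnpul1* shRNAs 12 were called, 8 higher and 4 lower, against 0.664% and 1.05%.

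Some exons stood past the NI level of the knockdown dataset in the knockdowns. The 75-nt exon of *Abcc5*, a membrane transporter of the ABC family, stood at 21.97 and 29.9 in NI and 13.6 and 15.7 in shSCR. It stood at 47.3 and 54.4 in shCPSF3#1, 48.1 and 55.8 in shCPSF3#2, 42.6 and 45.6 in shUL1#1, and 37.3 and 35.9 in shUL1#2, above the NI and shSCR libraries in each case, and also above the overexpression NI libraries at 19.6 and 35.6. It rose by 36.7 PSI and by 25.7 PSI over shSCR (read test, adjusted p = 8.48e-07 and 7.20e-05). The 132-nt exon of *Palm*, the gene of the plasma membrane protein paralemmin, stood at 62.3 and 67.6 in NI, 63.6 and 50.7 in shSCR, 92 and 88.6 in shCPSF3#1, 84.6 and 73.8 in shCPSF3#2, 84.1 and 73.96 in shUL1#1, and 84.8 and 78.4 in shUL1#2. It rose by 27.6 and 23.2 PSI over shSCR (adjusted p = 1.53e-04 and 0.00424), and the second call was lost without shSCR replicate 2 (0.114). The overexpression NI libraries stood at 70.3 and 82.1, so 3 knockdown libraries were not above all day 0 libraries. The 48-nt exon of *Col16a1*, a fibril-associated collagen, went below the NI libraries of the knockdown dataset, at 51.6 and 55.6, 52.7 and 53.04, 61.9 and 64.3, and 49.7 and 55.6 in the same order against 69.6 and 68.04 in NI and 95.1 and 79.1 in shSCR. It fell by 33.8 and by 29.2 PSI from shSCR (adjusted p = 1.77e-04 and 9.13e-04), and the second call was lost without shSCR replicate 1 (0.0623). The overexpression NI libraries stood at 68.5 and 62.99, so shUL1#1 replicate 2 was not below all day 0 libraries.

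The *Plod2* exon stood above shSCR in all 8 knockdown libraries, at 93.7 and 90.9 in shCPSF3#1, 77.7 and 65.5 in shCPSF3#2, 87.2 and 76.8 in shUL1#1, and 83.3 and 72.7 in shUL1#2 against 60.2 and 30.03 in shSCR. With the *Cpsf3* shRNAs the exon rose by 36.8 PSI (read test, adjusted p = 0.0194), a call lost without shCPSF3#1 replicate 1 (0.0875), shCPSF3#1 replicate 2 (0.0634) or shCPSF3#2 replicate 1 (0.0637), and without shSCR replicate 2 the difference was 21.8 PSI (adjusted p = 0.0114). With the *Hnrnpul1* shRNAs the difference of 34.9 PSI missed the threshold (adjusted p = 0.0556). The *Fbln2* exon, which rose at day 12, stood at 60.03 and 46.7, 59.7 and 52.9, 49.02 and 54.1, and 62.8 and 64.7 in the same order, against 43.7 and 52.4 in shSCR and 6.12 and 7.91 in NI. Its differences of 6.80 and 9.63 PSI from shSCR pointed away from day 0 and were not called (adjusted p = 0.424 and 0.260). In the extracellular matrix list 6 of 228 tested exons were called with the *Cpsf3* shRNAs (2.63%) and 4 with the *Hnrnpul1* shRNAs (1.75%). The shares of all events were 3.31% and 1.71%, and those of all tested frame-preserving exons were higher, at 5.17% and 3.25%.

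The *Tia1* NMD exon fell from shSCR in both knockdowns, whereas the *Tial1* exon stayed within the range of shSCR in most libraries. The *Tia1* exon stood at 39.7 and 30.7 in shCPSF3#1, 41.96 and 48.9 in shCPSF3#2, 41.2 and 38.2 in shUL1#1, and 32.6 and 33.6 in shUL1#2, against 70.4 and 69.7 in shSCR. It fell by 29.7 PSI and by 33.6 PSI (read test, adjusted p = 4.30e-05 and 1.70e-05). Scaled CPM of *Tia1* was 82.4 to 93.9 in the shCPSF3 libraries and 86.3 to 113 in the shUL1 libraries, against 69.7 and 66.7 in shSCR. The *Tial1* exon stood at 38.1 and 30.6, 39.02 and 29.8, 45.7 and 39.1, and 31.9 and 29.9 in the same order, against 44.6 and 29.8 in shSCR (adjusted p = 0.788 and 0.964). Of the 220 tested exons with an NMD stop codon, 26 were called with the *Cpsf3* shRNAs, 2 higher and 24 lower, against 1.06% of all events higher and 2.25% lower. With the *Hnrnpul1* shRNAs 20 were called, 3 higher and 17 lower, against 0.664% and 1.05%. These counts were again taken after values were seen, and they share the shSCR libraries with the counts of shSCR against NI. In the RNA-binding list as a whole, 22 of 221 were called with the *Cpsf3* shRNAs (9.95%, against 3.31% of all events), 8 higher and 14 lower, and 16 with the *Hnrnpul1* shRNAs (7.24%, against 1.71%), 7 higher and 9 lower.

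The remaining lists are read against 3.31% of all events called with the *Cpsf3* shRNAs and 1.71% with the *Hnrnpul1* shRNAs. Over all tested frame-preserving exons, from which the lists are drawn, the called shares were 5.17% and 3.25%. Chromatin genes, and switch genes with the *Hnrnpul1* shRNAs, stood near these. Chromatin and transcription genes had 12 of 217 tested exons called with the *Cpsf3* shRNAs (5.53%), 6 in each direction, and 8 with the *Hnrnpul1* shRNAs (3.69%), 1 higher and 7 lower. Membrane trafficking genes had 18 of 172 called with the *Cpsf3* shRNAs (10.5%), 6 higher and 12 lower, and 14 with the *Hnrnpul1* shRNAs (8.14%), 6 higher and 8 lower. The epithelial-mesenchymal switch genes had 17 of 188 called with the *Cpsf3* shRNAs (9.04%), 7 higher and 10 lower, and 7 with the *Hnrnpul1* shRNAs (3.72%), 2 higher and 5 lower. The 291-nt *Sec31a* exon stood at 17.5 and 17.4 in shCPSF3#1, 20.8 and 37.98 in shCPSF3#2, 20.2 and 34.02 in shUL1#1, and 24.8 and 31.8 in shUL1#2, against 45.4 and 62.2 in shSCR. It fell by 30.4 and by 26.1 PSI (read test, adjusted p = 0.00357 and 0.0217), and the second call was lost without shUL1#2 replicate 1 (0.0916) or shSCR replicate 2 (0.184).

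Few frame-preserving exons were called with overexpression of T7-TIA1. Of 11069 tested against Empty, 28 were called (0.253%), 6 higher and 22 lower, against 0.0725% of all events, 0.0186% higher and 0.054% lower. At an unadjusted p under 0.05 there were 1266. The median difference was -0.0200 PSI over all tested events and -0.320 to -0.0150 over the 8 lists. Among the 28, 17 moved by at least 10 PSI, 6 higher and 11 lower. The count was 4 without T7-TIA1 replicate 1, 18 without T7-TIA1 replicate 2, 9 without Empty replicate 1, and 16 without Empty replicate 2. It was 57 with the replicate block, 54 with 0.5 read added, 6 with events kept at 1 inclusion and 1 exclusion read, 2 without weights, and 0 on PSI in percent, where limma gave 882 at an unadjusted p under 0.05. By the differential splicing rule 175 exons qualified, 51 higher and 124 lower, against 0.232% of all covered events. That count was 425 without T7-TIA1 replicate 2 and 336 without Empty replicate 2. The exons called at day 12 by at least 10 PSI in the knockdown dataset had medians over the 289 higher exons of 60.3 and 54.8 in Empty and 51.6 and 54.95 in T7-TIA1, against 36.99 and 40.03 in NI. The 172 lower exons had medians of 60.7 and 62.96 in Empty and 60.5 and 61.4 in T7-TIA1, against 80.4 and 78.4 in NI.

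Among the calls, both exons of *Tia1* itself also count reads of the introduced cDNA. Exclusion reads for the 66-nt exon were 219 and 290 in Empty and 11421 and 7754 in T7-TIA1, while its inclusion reads were 257 and 194 in Empty and 103.7 and 165.5 in T7-TIA1. PSI was 54.1 and 40.1 in Empty and 0.900 and 2.09 in T7-TIA1. The 33-nt exon went from 86.96 and 79.97 to 99.8 and 99.7, with inclusion reads of 155 and 166 in Empty and 11615 and 8290 in T7-TIA1. Both were called (read test, adjusted p = 9.01e-10 and 3.00e-11). These 2 differences in PSI cannot be read as changes in the splicing of the endogenous gene.

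The *Tial1* NMD exon lies in another gene than the cDNA and rose with T7-TIA1. PSI was 44.2 and 28.01 in Empty and 75.3 and 62.7 in T7-TIA1, so both T7-TIA1 libraries stood above both Empty libraries by at least 18.5 PSI. It rose by 32.9 PSI (log2 ratio difference 2.00 ± 0.33 SE, read test, adjusted p = 0.00244), a call lost without T7-TIA1 replicate 1 (0.306) or Empty replicate 2 (0.144). Inclusion reads were 252 and 128 in Empty and 640 and 471 in T7-TIA1. Exclusion reads were 319 and 329 in Empty and 210 and 280 in T7-TIA1.

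The other rises were in *Ehbp1*, *Csnk1g3*, *Ppfibp1*, and *Ptprk*. The 108-nt exon of *Ehbp1*, which links endocytic vesicles to actin, stood at 14.2 and 10.6 in Empty and 57.4 and 34.7 in T7-TIA1, and between 8.53 and 23.2 in the 12 knockdown libraries. It rose by 33.6 PSI (log2 ratio difference 2.57 ± 0.38 SE, read test, adjusted p = 5.64e-04), which was 22.3 PSI and not called without T7-TIA1 replicate 1 (0.148). The 90-nt exon of *Csnk1g3*, a casein kinase 1 gene, stood at 16.7 and 17.3 in Empty and 35.8 and 35.1 in T7-TIA1 and rose by 18.5 PSI (adjusted p = 0.0498). The 30-nt exon of *Ppfibp1*, a liprin of adhesion sites, stood at 6.91 and 7.21 in Empty and 21.9 and 18.2 in T7-TIA1 and rose by 13.01 PSI (adjusted p = 0.0107). The 36-nt exon of *Ptprk*, a receptor tyrosine phosphatase at cell contacts, stood at 4.51 and 4.30 in Empty and 16.2 and 13.8 in T7-TIA1 and rose by 10.6 PSI (adjusted p = 0.0131). The last 3 calls were each lost whichever of the 4 libraries compared was left out, at an adjusted p of up to 0.588 for *Csnk1g3*, 0.424 for *Ppfibp1*, and 0.360 for *Ptprk*. In all 3 both T7-TIA1 libraries stood above both Empty libraries, by at least 9.32 PSI.

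Among the falls of at least 10 PSI outside *Tia1*, the 75-nt exon of *Dpy19l4*, a gene of the DPY19 family, had the smallest adjusted p. It stood at 91.8 or more in all 16 libraries without T7-TIA1, at 95.5 and 96.8 in Empty, and at 61.6 and 73.8 in T7-TIA1. It fell by 28.4 PSI (log2 ratio difference -3.46 ± 0.45 SE, read test, adjusted p = 3.13e-05), a call that held whichever library was left out. The 150-nt exon of *Pitpnm2*, a phosphatidylinositol transfer protein, stood at 68.1 and 53.7 in Empty, 18.97 and 20.7 in T7-TIA1, and 22.9 and 37.8 in NI. It fell by 41.1 PSI (adjusted p = 0.00608) and was not called without T7-TIA1 replicate 1 (0.242), T7-TIA1 replicate 2 (0.116) or Empty replicate 1 (0.132). The 165-nt exon of *Pla2g6*, a calcium-independent phospholipase, stood at 85.04 and 85.8 in Empty and 49.2 and 59.7 in T7-TIA1 and fell by 30.9 PSI (adjusted p = 0.00154), a call lost without T7-TIA1 replicate 1 (0.171). The 39-nt exon of *Myof*, the membrane repair protein myoferlin, stood at 83.5 and 81.4 in Empty and 61.6 and 63.96 in T7-TIA1 and fell by 19.7 PSI (adjusted p = 0.0324), a call lost whichever of the 4 libraries was left out (adjusted p up to 0.561).

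**Figure D5:**
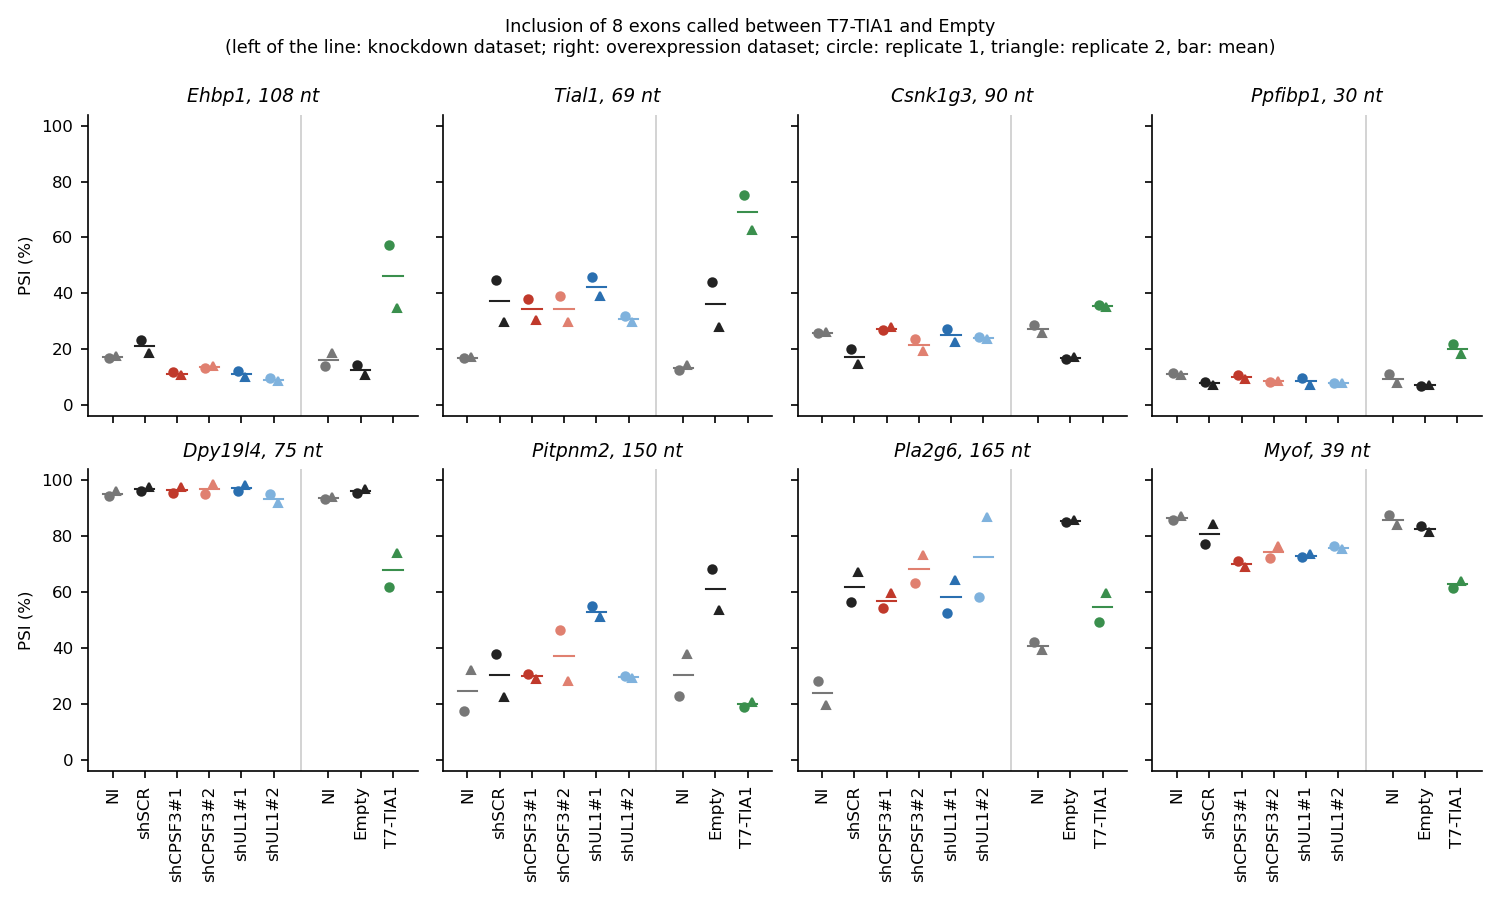
PSI (percent, y axis) of 8 exons called in T7-TIA1 against Empty, in each library grouped by condition on the x axis, with a circle for replicate 1, a triangle for replicate 2, and a bar for the mean; the knockdown dataset is left of the line and the overexpression dataset right of it. The *Tial1* exon stands at 44.2 and 28.01 in Empty and 75.3 and 62.7 in T7-TIA1, and the *Dpy19l4* exon at 95.5 and 96.8 against 61.6 and 73.8.

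The T7-TIA1 and knockdown calls come from separate libraries and can be set against each other. Of the 28 called with T7-TIA1, all were tested in the knockdown dataset, 20 moved in the same direction with the *Cpsf3* shRNAs and 16 with the *Hnrnpul1* shRNAs. Of the 734 called with the *Cpsf3* shRNAs, 699 were tested with T7-TIA1, 475 moved the same way (68.0%), and 9 were called in both (32.1% of the 28 and 1.23% of the 734), 7 of them in the same direction. Of the 462 called with the *Hnrnpul1* shRNAs, 443 were tested, 298 moved the same way (67.3%), and 5 were called in both, 3 of them in the same direction. Over all tested frame-preserving exons, 5.17% were called with the *Cpsf3* shRNAs, 3.25% with the *Hnrnpul1* shRNAs, and 0.253% with T7-TIA1. The share of all tested exons that moved the same way was not counted. Calls leaned lower in each comparison, at 411 of 734, 244 of 462, and 22 of 28. Without the 2 *Tia1* exons, whose reads include the cDNA, a choice made after the data were seen, 26 T7-TIA1 calls remained, of which 18 moved the same way with the *Cpsf3* shRNAs and 14 with the *Hnrnpul1* shRNAs. Called in both were then 8 and 4, of which 6 and 2 agreed in direction. By list, T7-TIA1 called 4 of 290 tested exons of actin and adhesion genes (2 in each direction), 2 of 140 of kinase genes and 2 of 159 of epithelial-mesenchymal switch genes (1 in each direction), 1 of 134 of trafficking genes (higher), and 1 of 163 of extracellular matrix genes (lower), against 0.0725% of all events. The 3 calls among 173 tested exons of RNA-binding genes were both *Tia1* exons and the *Tial1* exon. None of the 35 tested mitochondrial and 179 tested chromatin exons was called by limma.

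The exons that fell at day 12 were shorter and poorer in GC than those that rose, as a description. Of the exons called at least 10 PSI lower, 43 of 172 in shSCR and 24.8% of 113 in Empty were shorter than 60 nt. The shares were 13.5% of the 289 higher exons in shSCR, 19.3% of the 114 in Empty, and 9.13% of all 39558. Among the 812 exons alternative in every library, 21.1% were under 60 nt, which is nearer to the lower exons than the share of all 39558. The median GC content of the lower exons was 48.7% and 49.1%, against 53.6% and 53.7% in the higher exons. It was 50.7% in all exons with an annotated sequence and 50% in the 812. Against shSCR, 21.5% of the 107 exons higher with the *Cpsf3* shRNAs and 25.7% of the 70 higher with the *Hnrnpul1* shRNAs were under 60 nt, against 17.2% of 157 and 14.8% of 108 lower. Coding exons made up 84.1% and 84.3% of those higher and 61.8% and 58.3% of those lower, against 66.4% of the 812. These shares describe exons already chosen by the same values and were not tested.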

How the data were processed

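The 18 polyA-selected, stranded RNA-seq libraries were grouped by the GEO labels into 9 groups of 2. The authors mapped reads to mm10 with vast-tools and deposited, for each event and library, PSI in percent together with scores of coverage and balance and the counts of inclusion and exclusion reads. The authors also deposited filtered gene expression as scaled CPM signal, made with STAR 2.7.1a and edgeR 3.16.5, which was used here as a description only. Stranded counting keeps reads of overlapping genes on opposite strands apart.

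Exons were kept if they were cassette events (classes S, C1, C2, C3, and ANN) of 28 to 299 nt, divisible by 3, with a coverage score other than N in all libraries. The authors' score asks for at least 10 reads at its lowest passing grade. For the read test, log2((inclusion + 1)/(exclusion + 1)) was computed from the deposited counts, a depth offset was subtracted, and each value was weighted by the inverse of its counting variance plus 0.1. A model of group means was fitted per dataset over all events covered in that dataset with at least 10 inclusion and 10 exclusion reads in total. Variances were moderated with limma 3.58.1 in R 4.3.3, and Benjamini-Hochberg adjustment ran over all events tested (153542 in the knockdown and 118564 in the overexpression dataset), with calls at an adjusted p under 0.05. The test is two-sided. The *Cpsf3* and *Hnrnpul1* comparisons took the mean of both shRNAs. The fit was tested on simulated data, after which the offset was added, so it departs from the design first written, and the fit without it is among the alternatives. With the offset, 100 events were simulated at each size of change. A log2 ratio difference of 1 was called in 4 of 100 for shSCR and 12 of 100 for Empty. A difference of 2 was called in 74 and 71. An exon that was not called can therefore have changed. No p-value was given for the differential splicing rule.

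The exons and the 8 gene lists were chosen with earlier results of these data known. The exons named were, per comparison, the 8 largest rises and 8 largest falls among calls whose groups do not overlap, at most 1 per gene, the members called in *Cpsf3*, *Hnrnpul1*, or *Tia1*, up to 4 per list, and 1 exon (*Plod2*) assayed in the study, which gave 72 exons of 67 genes, of which the text describes a part. Exons outside this rule are marked as chosen after their values were seen. Coding status and sequence came from GENCODE vM21. Alternatives left out single libraries, added the replicate number as a block, kept only the groups compared, or changed the coverage score, the read minimum, the added reads, the weights, the scale, or the PSI threshold. Python 3.11.15, NumPy 2.4.6, pandas 2.3.3, SciPy 1.17.1, and matplotlib 3.10.9 were used.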

Additional observations from a re-analysis of the deposited data

Results flagged for a closer look

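At 3 of the 279 exons that met the differential splicing rule in both datasets, the day 12 control cells moved in opposite directions. Both libraries of each day 12 group stood on the far side of both NI libraries. Exons with opposite signs that did not meet the rule in both datasets are not listed here. The difference between the datasets was not tested. The 144-nt exon of *Lrig2* went from 78.9 and 87.6 in NI to 97.1 and 95.3 in shSCR (12.9 PSI) and from 100 and 96.9 in NI to 84.7 and 87.6 in Empty (-12.3 PSI). The 165-nt exon of *Cep152* went from 84.3 and 77.98 to 93.9 and 91.6 (11.6 PSI) and from 93.2 and 94.1 to 68.2 and 86.96 (-16.1 PSI). The 255-nt exon of *Gkap1* went from 56.4 and 62.3 to 77.2 and 71.4 (14.9 PSI) and from 65.4 and 68.7 to 52.2 and 36.3 (-22.8 PSI), and no library had the best balance score for it. Among these 6 differences the read test called that of *Lrig2* in shSCR (adjusted p = 0.0222), a call lost without shSCR replicate 1 (0.178), shSCR replicate 2 (0.0571) or NI replicate 1 (0.273), and that of *Gkap1* in Empty (adjusted p = 0.0152), a call lost without Empty replicate 2 (0.173), NI replicate 1 (0.0622) or NI replicate 2 (0.122). Without NI replicate 1 the first difference was 8.55 PSI, and without Empty replicate 2 the second was -14.8 PSI.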

How the results depend on the processing

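Counts of called exons are given for shSCR, Empty, the *Cpsf3* shRNAs, the *Hnrnpul1* shRNAs, and T7-TIA1 in this order. Without 1 library they ran over 533 to 1282, 151 to 537, 266 to 784, 135 to 526, and 4 to 33. With events kept at 1 inclusion and 1 exclusion read, they were 497, 125, 246, 97, and 6, without weights 485, 40, 82, 15, and 2, and on PSI in percent 621, 0, 234, 132, and 0. On that last scale limma gave 1296 members at an unadjusted p under 0.05 in Empty and 882 in T7-TIA1. T7-TIA1 had 54 calls with 0.5 read added. The causes of these shifts were not tested. The replicate block gave 1431, 587, 963, 648, and 57 calls. The labels do not say what libraries of a replicate number share. Their deviations from group means over the 812 exons correlated at 0.251 to 0.568 between day 12 groups of the knockdown dataset, -0.0899 to -0.00756 between NI and those groups, and 0.0398 to 0.222 in the overexpression dataset. The fit without depth offset, chosen after the data were seen, gave 1354, 437, 805, 490, and 29. By the differential splicing rule with 15 PSI, counts were 398 in shSCR, 228 in Empty, 313 and 156 with the *Cpsf3* shRNAs, 165 and 182 with the *Hnrnpul1* shRNAs, and 72 in T7-TIA1. Without 1 library they were 768 to 820, 436 to 653, 623 to 640, 416 to 521, 379 to 519, 434 to 555, and 236 to 425. A rule on the nearest libraries is easier to meet with 1 library less. Of 174 called differences of the named exons, 97 stayed called whichever library was left out and 77 were lost without at least 1. None of the 174 was reversed, and 0 were lost with the block or without the offset. Depth limits the smallest differences, and PSI from few reads has wide intervals.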
